A study of Mus musculus with 2 samples.

Results

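The nuclear genes for the subunits of oxidative phosphorylation were described in the embryonic mouse hindbrain. Members were the protein-coding genes whose symbol begins with Ndufa, Ndufb, Ndufc, Ndufs, Ndufv, Uqcr, Cox4i, Cox5, Cox6, Cox7, Cox8 or Atp5, together with Sdha, Sdhb, Sdhc, Sdhd and Cyc1. The rule uses names only and found 94 genes of the 42462 genes that carried a symbol. Of these, 46 belong to complex I, 4 to complex II, 9 to complex III, 18 to complex IV and 17 to complex V. Among the complex I genes, grouped by name, 7 are core subunits, 31 are accessory subunits and 8 are Ndufaf assembly factors. The 31 include Ndufa4, now counted as a complex IV subunit, and Ndufa4l2. The medians with Ndufa4 moved to complex IV were not computed. The prefixes also take in 3 genes that are relatives rather than standard subunits, Ndufa4l2, Cox7a2l and Atp5s.

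The tissue was hindbrain of healthy B6NCrl mouse embryos at age 11.5 days, male and female embryos pooled. All libraries belong to 1 group, so no condition, genotype or treatment was compared. Pool 1 combined 109 embryos and pool 2 combined 88, and each is a biological replicate per the labels. The input per library was 10 ng of RNA above 200 nt in size, extracted with the mirVana kit and mixed with spike-in RNAs, and total RNA was sequenced.

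The respiratory chain is a row of protein complexes in the mitochondrial inner membrane that passes electrons from NADH and succinate to oxygen and pumps protons on the way. Complex I takes electrons from NADH, complex II from succinate, complex III hands them to cytochrome c, complex IV passes them to oxygen, and complex V uses the proton gradient to make ATP. Complexes I, III, IV and V are built from proteins of both genomes, whereas every protein of complex II is nuclear encoded.

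The depth was 45340440 expected counts for pool 1 and 41261544 for pool 2, and the members held 569607 and 485688 of them. Levels are given as TPM, a share of all transcripts corrected for length, so that genes can be compared. The share of TPM on spike-ins was 16.2% for pool 1 and 22.2% for pool 2. For ratios between pools, log2(TPM + 1) of pool 1 was subtracted from that of pool 2, and the value of the median gene, -0.11, was then subtracted, which gives what is here called the relative ratio. The hindbrain factors Hoxa2 (49.3 and 48.1 TPM) and Hoxb2 (48.9 and 46.4) were present, and the rhombomere factor Egr2 stood at 0.99 and 0.77 TPM. In bulk tissue, fewer cells of a type and less RNA per cell cannot be told apart.

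Of the 94 members 90 had at least 1 TPM in both pools, or 95.7%, against 59.4% of all 21461 protein-coding nuclear genes. The median member had 228 TPM in pool 1 and 207 in pool 2 (217 ± 15.4, SD, n = 2). The median of all protein-coding nuclear genes was 3.93 and 3.75 TPM. Together the members made up 3.62% of protein-coding nuclear TPM in pool 1 and 3.60% in pool 2. The 4 genes under 1 TPM, Cox6a2, Cox7b2, Cox8b and Cox8c, are all tissue-restricted alternative forms of complex IV subunits.

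**Figure D1:**
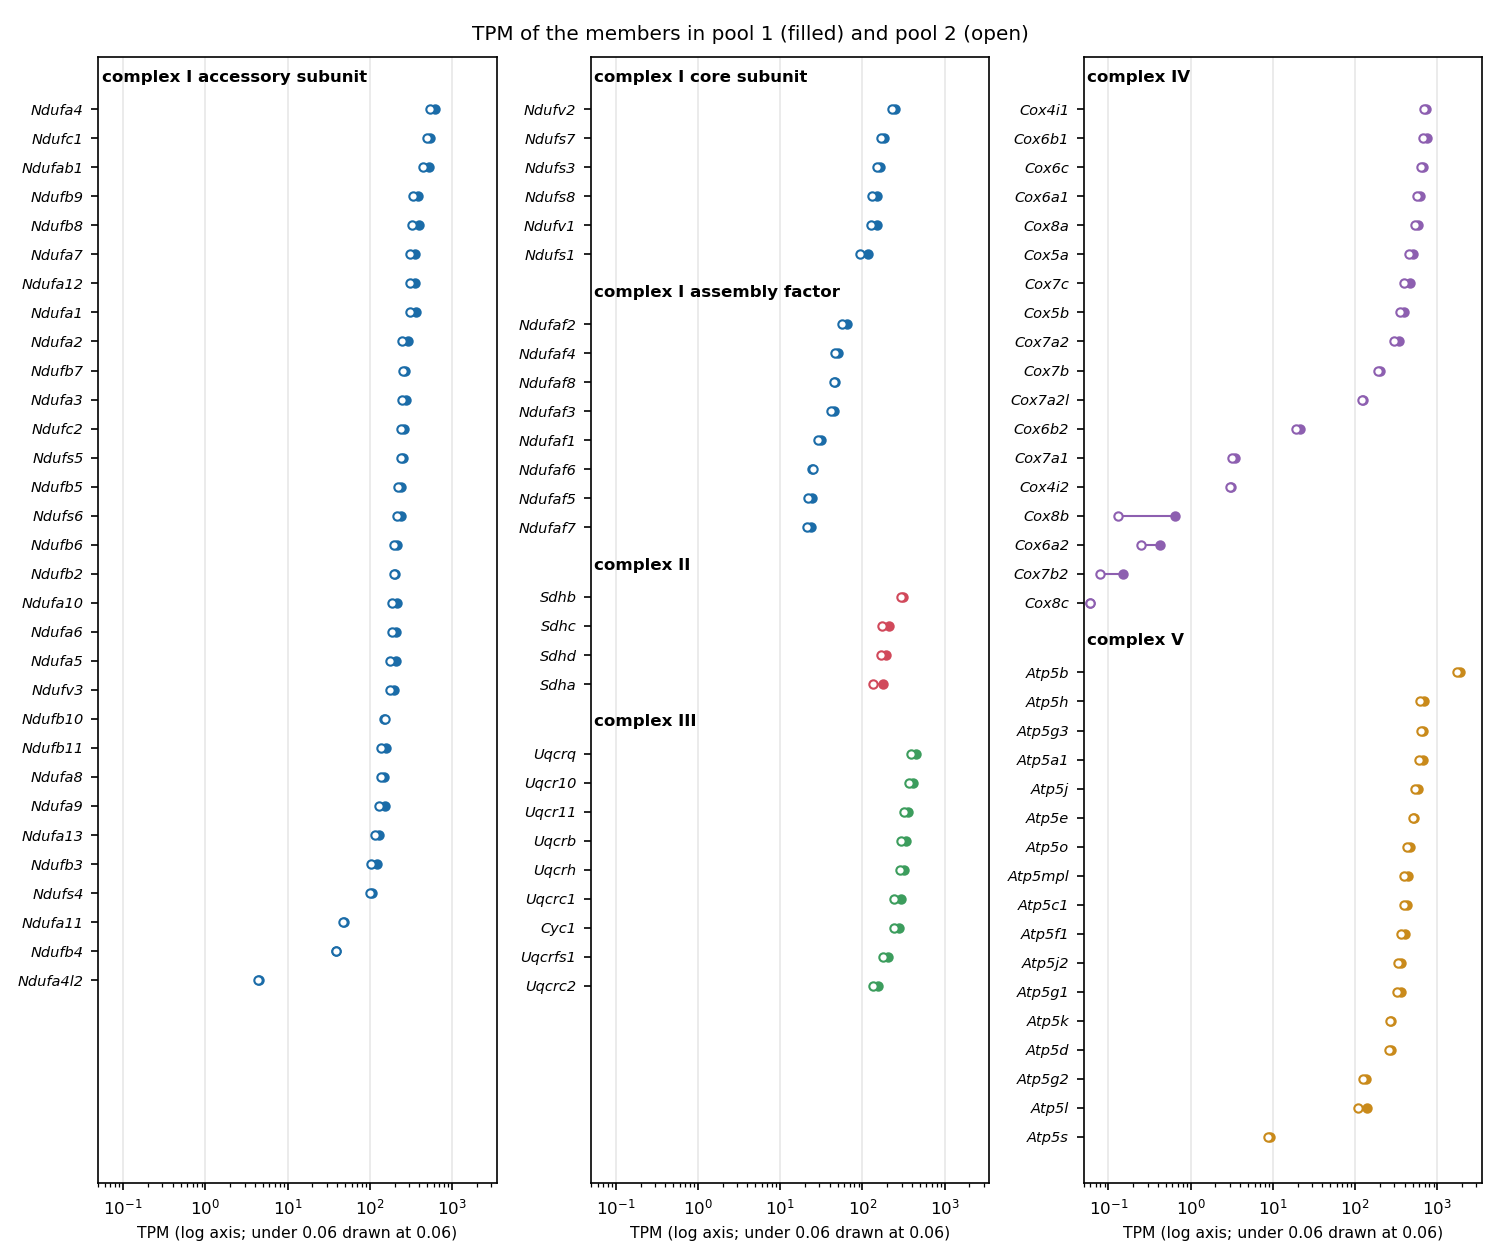
TPM of the members on a log axis, without 1 that is not reported by name, in panels by complex and role, with pool 1 filled and pool 2 open. Points of the same gene nearly coincide except for Cox8b, Cox6a2 and Cox7b2, which lie under 1 TPM, and Atp5b stands highest at 1888 and 1721 TPM.

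The complexes were ordered V, III, IV, II and I by the median TPM of their members. Complex V had a median of 428 TPM in pool 1 and 390 in pool 2 (409 ± 26.6, SD, n = 2). Complex III followed with 320 and 286 (303 ± 24.2) and complex IV with 271 and 242 (256 ± 21.0). Complex II had 201 and 170 (185 ± 21.7) and complex I 190 and 172 (181 ± 13.1). Complexes I and II lay close together, and their order reversed in pool 2. Each SD also holds the shift of scale between pools that all genes share, with the median gene at -0.11. It is therefore no measure of how far complexes differ within a pool. Complex V lay above all others in both pools when all members were counted. Among subunits with a mean of at least 1 TPM, relatives left out, complex IV had a median of 463 TPM in pool 1 and 391 in pool 2. Complex V then had 432 and 395 TPM, so the order of these complexes turned in pool 1. With all members counted, the values of complex III did not overlap those of complex IV, but that order turns with 1 gene. Without the relative Cox7a2l the complex IV median was 318 TPM as a mean of the pools, above the 303 of complex III.

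In complex I the catalytic core is the part that carries the flavin and the iron-sulfur clusters, and the accessory subunits surround it. The nuclear core subunits had a median of 163 TPM in pool 1 and 150 in pool 2 (156 ± 9.02, SD, n = 2). Accessory subunits had 217 and 200 TPM (208 ± 12.0). Core transcripts are also longer, with a median length of 1038 nt against 634 nt, and what length contributes was not tested. Across the 90 members with a mean of at least 1 TPM, length and mean TPM had a Spearman rho of -0.40, as a description over genes that share libraries. The other protein-coding nuclear genes at 20 to 2000 TPM had a rho of -0.34.

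The core subunits of complex I lay in a narrow band of levels. Ndufv2, an iron-sulfur subunit at the NADH end, was the highest at 251 TPM in pool 1 and 232 in pool 2. Ndufs7, an iron-sulfur subunit beside the ubiquinone pocket, had 185 and 167 TPM.

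Ndufs3 had 163 and 150 TPM, Ndufs8 152 and 129, and Ndufv1, the flavin-binding subunit, 151 and 129. Ndufs8 and Ndufv1 had nearly the same level in each pool. Ndufs1, the largest core subunit and a carrier of several iron-sulfur clusters, was lowest at 118 and 93.2 TPM.

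Accessory subunits of complex I reached the highest levels of the complex. Ndufa4, which was first assigned to complex I and is now counted as a complex IV subunit, had 616 TPM in pool 1 and 543 in pool 2. Ndufc1, a small membrane subunit, had 539 and 494 TPM. Ndufab1, the mitochondrial acyl carrier protein, had 521 and 449 TPM.

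Low accessory values came from a few genes, 2 of which depend on how reads or lengths were assigned. Ndufa11, a membrane-arm subunit, was listed at 48.0 and 46.7 TPM with 3618 and 3380 reads. The deposited tables gave its transcript Ndufa11-201 a length of 2661 nt, whereas GENCODE vM21 gives that transcript 545 nt. At the shorter length the same reads would correspond to 276 and 268 TPM, if all of them lay within it. Where the reads lie was not examined, so these are upper values. Among the leading transcripts of the members it alone differed in length by over 1.5-fold between the annotations.

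Ndufb4, another membrane-arm subunit, stood at 38.4 TPM in both pools, with 588 and 535 reads. A processed pseudogene, Ndufb4c (chr15:73809507-73809896, GRCm38), was listed at 239 and 204 TPM, with 2042 and 1675 reads. All 390 nt of the pseudogene's annotated transcript occur without a mismatch within Ndufb4-201, which is 971 nt long. Reads from that stretch fit both genes equally, so the split between them rests on the deposited estimate. The listed TPM of gene and pseudogene sum to 277 and 242 (260 ± 24.7, SD, n = 2). Each part is scaled to its own length, 619 nt for the gene and 390 nt for the pseudogene. At the length of Ndufb4 the same reads would give a lower value, which was not computed.

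Assembly factors of complex I, which help build the complex and are not part of the finished enzyme, were far lower than its subunits. The 8 Ndufaf genes had a median of 38.1 TPM in pool 1 and 35.0 in pool 2 (36.6 ± 2.17, SD, n = 2) and ranged from 22.5 TPM for Ndufaf7 to 61.0 for Ndufaf2, as means of the pools. Assembly factors outside the rule had similar medians, with means of the pools of 24.6 TPM over 8 further factors of complex I, 17.4 over 4 of complex II, 27.5 over 6 of complex III, 30.3 over 21 of complex IV and 30.9 over 3 of complex V. The highest of the complex IV factors were Coa3, at 163 and 147 TPM, and Cox14, at 123 and 102 TPM. The lowest was Pet117, at 0.99 and 0 TPM. Uqcc2, a factor for complex III, had 260 and 225 TPM and so lay among the subunits.

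Complex II, succinate dehydrogenase, also works in the citrate cycle. Sdhb, its iron-sulfur subunit, had 311 TPM in pool 1 and 295 in pool 2. The membrane anchors Sdhc and Sdhd had 209 and 171, and 192 and 169 TPM. Sdha, the flavoprotein that oxidises succinate, had 176 and 134 TPM. Sdha was thus the lowest of the 4 genes in both pools, and Sdhb the highest.

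In complex III the small subunits led. Uqcrq, a small subunit that contacts cytochrome b, had 447 TPM in pool 1 and 386 in pool 2. Uqcr10 had 414 and 367 TPM, and Uqcr11 362 and 321. Cyc1, the cytochrome c1 subunit, had 277 and 240 TPM. Uqcrfs1, the Rieske iron-sulfur protein, had 203 and 176 TPM. Both are redox subunits and lay below the complex median. The structural core protein Uqcrc1 had 292 and 244 TPM, and the other, Uqcrc2, was the lowest of the complex at 154 and 135 TPM.

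Complex IV, cytochrome c oxidase, held 5 genes above 500 TPM in both pools. Cox4i1, a regulatory subunit, had 737 and 689 TPM. Cox6b1, on the face that meets cytochrome c, had 747 and 670 TPM. Cox6c, a small membrane subunit, had 673 and 631 TPM. Cox5a and Cox5b, which face the mitochondrial matrix, had 514 and 457, and 398 and 349 TPM.

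Several complex IV subunits are encoded by alternative genes, and 1 gene supplied nearly all TPM in most of these families. Cox4i1 made up 99.6% of the TPM of the COX4 pair in both pools. Its alternative Cox4i2, known from lung and from low oxygen, had 3.09 and 3.04 TPM. Cox6a1 had 611 and 570 TPM, against 0.43 and 0.25 TPM (7 and 4 reads) for the heart and muscle form Cox6a2. Cox8a had 580 and 542 TPM, against 0.65 and 0.13 TPM (5 and 1 reads) for the muscle form Cox8b. The testis form Cox8c was listed at 0 TPM with 0 reads in both pools, and 3 reads would be 0.0394% of the reads of the family in pool 1 and 0.0439% in pool 2.

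The COX7B pair had the same shape. Cox7b had 202 and 188 TPM, and the testis form Cox7b2 had 0.15 and 0.08 TPM, from 2 reads and 1 read. These counts of a few reads set a limit on what can be said of either pool. Skeletal and cardiac muscle markers were low beside the subunits, with a summed level of 113 TPM over 11 genes in pool 1 and 61.1 in pool 2. Of its 9 genes with a mean of at least 1 TPM, 8 had a relative ratio below -0.32, that is, lower in pool 2, where 6.59% of all genes at that level did. The heart factor Nkx2-5 was at 0 in both. The muscle forms had too few reads for a direction to be stated. Cox7a1, with 27 and 24 reads, had a relative ratio of 0.02, Cox6a2 had -0.08 and Cox8b -0.44, and the last 2 rest on 7 reads or fewer a pool. The part of muscle tissue in those counts was not tested.

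Other families were less one-sided. Cox6b2, a form known from testis, had 21.5 and 19.3 TPM, or 2.80% of the COX6B pair in both pools. In the COX7A family Cox7a2 had 340 and 295 TPM and made up 71.4% ± 1.84 (SD, n = 2). Cox7a2l, a relative that binds respiratory supercomplexes, had 124 and 123 TPM. The muscle form Cox7a1 had 3.46 and 3.20 TPM, or 0.75% of the family. Ndufa4l2, the low-oxygen relative of Ndufa4, had 4.54 and 4.32 TPM.

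**Figure D2:**
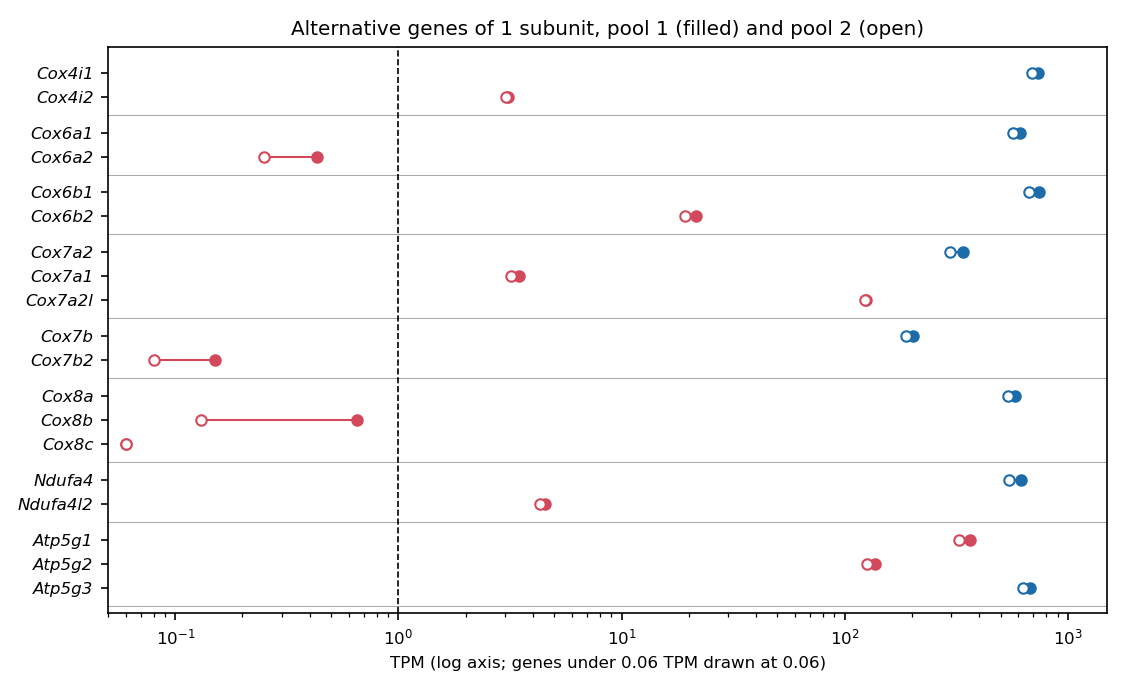
TPM of the alternative genes of each subunit on a log axis, pool 1 filled and pool 2 open, with the highest gene of each family in blue, the others in red and a dashed line at 1 TPM. The muscle and testis forms Cox6a2, Cox7b2, Cox8b and Cox8c lie left of the line, while the subunit c genes Atp5g1, Atp5g2 and Atp5g3 all lie above 100 TPM.

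Complex V, ATP synthase, held the highest member of the whole set. Atp5b (chr10:128083273-128090391, GRCm38) encodes the catalytic beta subunit and had 1888 TPM in pool 1 and 1721 in pool 2 (1805 ± 118, SD, n = 2). That placed it above 99.8% of detected protein-coding genes. Atp5a1, which encodes the alpha subunit present in equal number in the enzyme, had 679 and 606 TPM. In gene totals these partners thus differed more than 2-fold in each pool. On their leading coding transcripts the gap was smaller, with 1313 and 1136 TPM for Atp5b-201 against 659 and 547 for Atp5a1-201.

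Subunit c forms the rotating ring, and 3 genes encode the same mature peptide. Atp5g3 had 675 TPM in pool 1 and 627 in pool 2, or 57.7% ± 0.53 (SD, n = 2) of the family. Atp5g1 had 365 and 327 TPM, or 30.6% ± 0.51. Atp5g2 had 137 and 126 TPM, or 11.7% ± 0.02. The order of the genes was the same in both pools, and their sum was 1176 and 1080 TPM. Atp5h, a stalk subunit, had 686 and 624 TPM. The lowest gene taken in by the prefix was Atp5s, which is a coupling factor relative, with 9.27 and 8.83 TPM. The proteins that the prefixes miss included 2 at higher levels, Usmg5 (898 and 771 TPM), a membrane subunit of ATP synthase, and its inhibitor Atpif1 (881 and 822 TPM).

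Levels rest on assigning reads to transcripts, and for some members a transcript not annotated as protein-coding led. Among the 90 members above the level filter, 27 have 1 annotated transcript and 63 have several. For 8 of those 63 (12.7%) the leading transcript was of a non-coding biotype, against 8.39% of 4460 other protein-coding nuclear genes at 20 to 2000 TPM with several transcripts. The 8 comprised 4 retained-intron transcripts, 3 processed transcripts and 1 transcript marked for nonsense-mediated decay.

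The largest such share was in Ndufa5, an accessory subunit of complex I, where the processed transcript Ndufa5-204 held 92.9% of the gene's TPM in pool 1 and 93.7% in pool 2. In Atp5f1, the stalk subunit b, the decay-marked Atp5f1-203 held 71.2% and 72.7%. In Atp5j the retained-intron Atp5j-208 held 61.1% and 62.2%. In Cox5b the processed Cox5b-205 held 62.3% and 59.2%. These shares nearly repeat between pools, and they are estimates on short overlapping models. Atp5b itself had 69.6% and 66.0% on the coding Atp5b-201 and 24.9% and 28.4% on the 478-nt processed Atp5b-206. The leading transcript was the same in both pools for all 63 members, whereas it differed for 279 of the 4460 other genes. The members' leading transcripts held a median of 89.3% and 88.0% of the gene against 71.6% and 69.4%. The other genes at 20 to 2000 TPM were lower, with medians of 50.4 and 45.2 TPM, and longer. Transcript shares were not compared at a matched level or length.

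**Figure D3:**
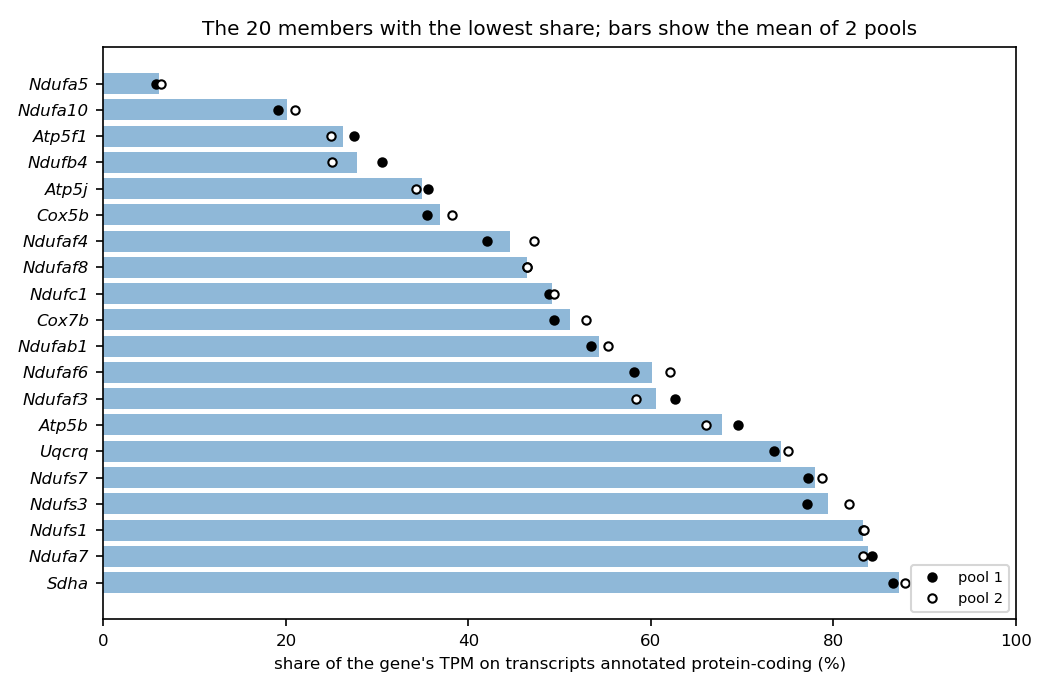
Share of a gene's TPM that falls on transcripts annotated protein-coding, in percent, for the 20 members with several transcripts and the lowest shares among those reported by name. Bars give the mean of the pools, filled points pool 1 and open points pool 2. Ndufa5 is lowest, at 5.80% and 6.27%.

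With 1 library a pool, a difference between pools has no replicate check, and the relative ratios are a description. The members varied little. Of 90 members with a mean of at least 1 TPM, 0 had a relative ratio beyond 0.32 in either direction, where 19.5% of all 14833 genes at that level did. Beyond 1.5-fold the count was also 0, against 5.89% of all genes. Levels matter here, because members are abundant. Of the 5883 protein-coding nuclear genes at 20 to 2000 TPM, 7.05% were beyond 0.32, and of the 1336 at 100 to 2000 TPM, 2.62% were. At 100 to 2000 TPM the members had a median relative ratio of -0.05 with an SD of 0.08 over 75 genes, and all such genes a median of -0.05 with an SD of 0.13. The 77 mitochondrial ribosomal proteins, at a lower median of 72.8 TPM, also had 0 genes beyond 0.32 and an SD of 0.09, so the narrow spread was not limited to the members.

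The relative ratio over the 90 members had a median of -0.03, with 65 lower and 25 higher in pool 2. A lower value in pool 2 was also found for 62.1% of protein-coding nuclear genes at 20 to 2000 TPM and 69.9% at 100 to 2000 TPM, so the direction of the members was near that of genes at their level. By complex the medians were -0.02 for complex I, -0.13 for II, -0.08 for III, 0.01 for IV and -0.02 for V. All 9 members of complex III were lower in pool 2, from -0.05 for Uqcrh to -0.15 for Uqcrc1. In complex II, 3 of 4 were lower. The median 95% counting interval of a member's ratio was ±0.06, and it covers counting error only.

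The farthest member was Sdha, whose 176 and 134 TPM gave a relative ratio of -0.28. Atp5l, an ATP synthase membrane subunit, followed at 141 and 109 TPM and -0.25. The deposited posterior SD of its count was 84.3 and 70.7 reads. Its transcript has an identical run of 171 nt with the pseudogene Atp5l-ps1. That pseudogene held only 10.5 and 10.0 reads, with a posterior SD of 2.47 and 2.10. Which other entries share reads with Atp5l was not examined. Ndufs1, at 118 and 93.2 TPM, had -0.23. Sdhc had -0.18. On the other side stood Ndufaf6, an assembly factor with 24.1 and 24.9 TPM, at 0.16, and Ndufb10, an accessory subunit with 150 and 154 TPM, at 0.15. The genes of the citrate cycle, to which complex II also belongs, had a median relative ratio of -0.13, with 14 of 16 lower in pool 2 and 0 of 16 beyond 0.32, beside the share of 62.1% lower among genes at 20 to 2000 TPM.

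The 13 mitochondrially encoded subunits mostly had higher values in pool 2. Their median was 949 TPM in pool 1 and 1102 in pool 2 and their median relative ratio was 0.32. Of the 13, 11 were higher in pool 2 and 5 lay above the limit of 0.32. Of all genes with a mean of at least 1 TPM, 12.9% were that far higher. Among protein-coding nuclear genes it was 208 of 5883 at 20 to 2000 TPM and 10 of 1336 at 100 to 2000 TPM. In complex I the median relative ratio was 0.32 over the 7 mitochondrial genes and -0.04 over 37 nuclear subunits with Ndufa4l2 and the assembly factors left out. In complex IV it was 0.39 over 3 mitochondrial genes and 0.00 over 13 nuclear ones. In complex III it was 0.18 for mt-Cytb and -0.08 for 9 nuclear genes, and in complex V 0.14 for mt-Atp6 and mt-Atp8 and -0.02 for 16 nuclear genes. The exceptions were mt-Nd3, with 333 and 292 TPM, and mt-Nd4l, with 31.8 and 18.1 TPM. The relative ratio of mt-Nd4l was -0.67, beyond the limit on the lower side, and it was the 1 gene of the 13 beyond 1.5-fold. The share of spike-ins differed between pools as given above. It scales the TPM of all genes of a pool by 1 common factor. Subtracting the median gene takes such a factor out of the relative ratio, apart from the pseudocount of 1. The cause of the mitochondrial ratios was not tested.

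**Figure D4:**
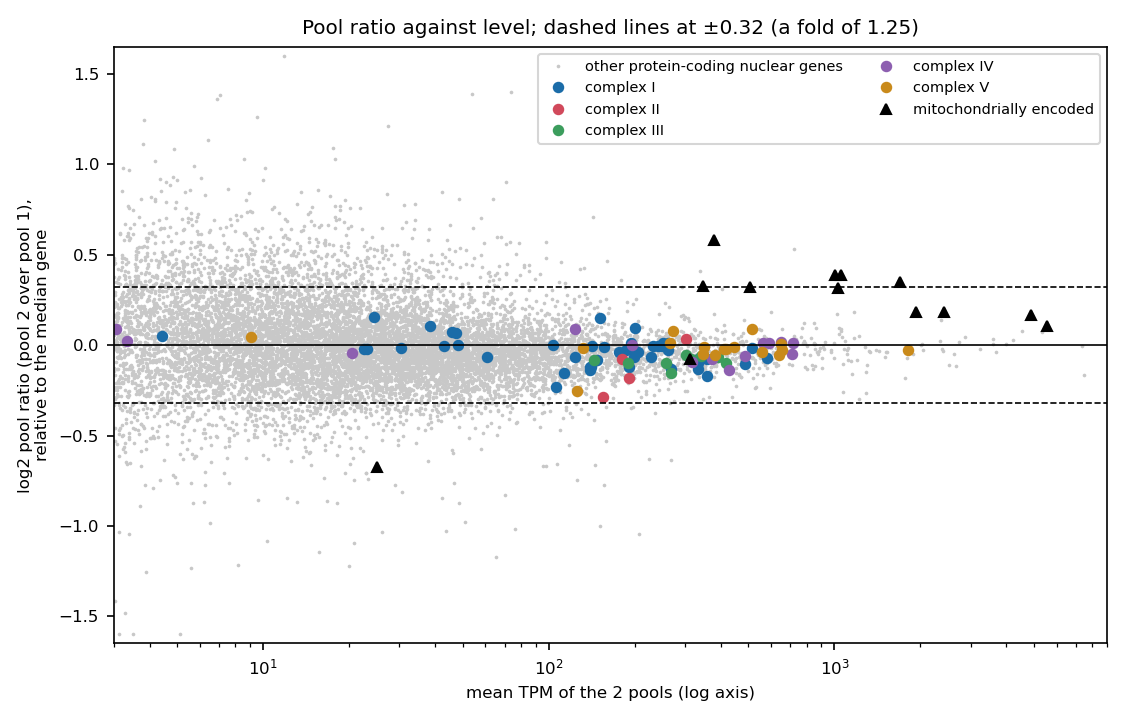
Relative ratio between pools (log2, pool 2 over pool 1) against mean TPM on a log axis, with members coloured by complex, mitochondrially encoded subunits as triangles and other protein-coding nuclear genes from 3 TPM in grey, drawn at 1.6 where beyond it. Every member with a mean of at least 3 TPM lies between the dashed lines at 0.32, with Sdha nearest the lower line, and 11 of 13 triangles lie above 0.

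Nuclear and mitochondrial subunits are linked by regulators that have been described for respiratory genes. Nrf1, a factor that binds many respiratory promoters, had 55.0 and 47.9 TPM. Gabpa, an ETS factor also described as a regulator of respiratory genes, had 30.1 and 23.5 TPM, and Yy1 had 19.5 and 20.9. The co-activators Ppargc1a and Ppargc1b were low, at 3.23 and 2.76 TPM and at 0.49 and 0.69 TPM, while Pprc1, the other co-activator of that family, had 31.8 and 30.5 TPM. The receptor Esrra had 2.00 and 1.91 TPM. The receptor Esrrg had 7.67 and 10.05 TPM, with a relative ratio of 0.46. The highest of the 15 regulators were Slirp, a stabiliser of mitochondrial messenger RNA, at 227 and 189 TPM, and Tfam, which packages and transcribes mitochondrial DNA, at 68.7 and 67.4 TPM. The ATP and ADP carriers that serve complex V were near the subunits in level, with Slc25a5 at 675 and 577 TPM and Slc25a4 at 399 and 335, while the testis form Slc25a31 had 0.27 and 0.09.

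Promoter sequences from RefSeq (GRCm38.p6, 250 bases before to 50 after the start) matched 76 of the 94 members. They were searched on both strands for GCGCANGCG, the core of the NRF1 motif, CCGGAAGT for GABPA and other ETS factors, AAGATGGCG for YY1 and TCAAGGTCA for ESRRA. Upstream stretches of 5 members, picked after the matches were seen, are shown as examples of the letters of 3 of these motifs in complexes I, III, IV and V. They overlap annotated exons of protein-coding genes by at most 3 bases, and those of Atp5l and Ndufaf4, not shown, overlap none. Capitals mark the matches, each stretch is written 5′ to 3′ on the strand of the gene, and a palindromic NRF1 match is capitalised over both strands. Ndufs5 is from chr4:123718225-123718304 (minus strand), Uqcr11 from chr10:80406828-80406907 (minus), Uqcrh from chr4:116075071-116075150 (minus), Cox6a1 from chr5:115349046-115349140 (minus) and Atp5g3 from chr2:73911327-73911406 (minus).
Ndufs5: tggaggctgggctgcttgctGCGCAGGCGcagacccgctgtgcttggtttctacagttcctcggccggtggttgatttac
Uqcr11: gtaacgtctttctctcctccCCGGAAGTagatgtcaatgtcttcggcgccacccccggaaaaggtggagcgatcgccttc
Uqcrh: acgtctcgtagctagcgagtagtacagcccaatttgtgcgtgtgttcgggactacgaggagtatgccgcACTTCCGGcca
Cox6a1: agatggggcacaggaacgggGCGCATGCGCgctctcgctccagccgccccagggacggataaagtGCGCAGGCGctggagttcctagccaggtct
Atp5g3: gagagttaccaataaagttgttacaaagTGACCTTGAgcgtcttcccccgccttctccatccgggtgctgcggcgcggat

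In these stretches Ndufs5 and Cox6a1 carry the NRF1 letters, and Uqcr11 and Uqcrh the ETS letters in opposite orientations. Atp5g3 carries the ESRRA letters on the other strand. Uqcr11 and Atp5g3 also hold the NRF1 letters in the searched window, outside the stretch shown. The NRF1 letters were in 22 of 76 member promoters (28.9%, 95% Wilson interval 20.0 to 40.0). They were in 10.1% of 16507 promoters of protein-coding nuclear genes and in 15.2% of the 10329 with a mean of at least 1 TPM. The YY1 letters were in 8 member promoters (10.5%, interval 5.43 to 19.4), against 2.26% of all and 3.45% of those at that level. Of these 8 matches 7 begin after the start, all on the gene's own strand. The ETS letters were in 5 (6.58%), against 5.97% and 8.91%, and the ESRRA letters in 2 (2.63%), against 0.38% and 0.29%. Mitochondrial ribosomal proteins gave 23.5% for NRF1, 16.2% for ETS and 11.8% for YY1, so the NRF1 and YY1 shares were near those of the members.

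A match is a run of letters and says nothing of binding. Members with the NRF1 letters had a median of 194 TPM and a median relative ratio of -0.02 (n = 22), and the 54 without had 236 TPM and -0.04. With the bases before the start alone, the NRF1 share of the members was 19.7% (lower 95% bound 12.3), against 12.6% of protein-coding nuclear genes with a mean of at least 1 TPM and 19.1% of mitochondrial ribosomal proteins. The YY1 share was then 1.32%, the same as the 1.32% of those genes.

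**Figure D5:**
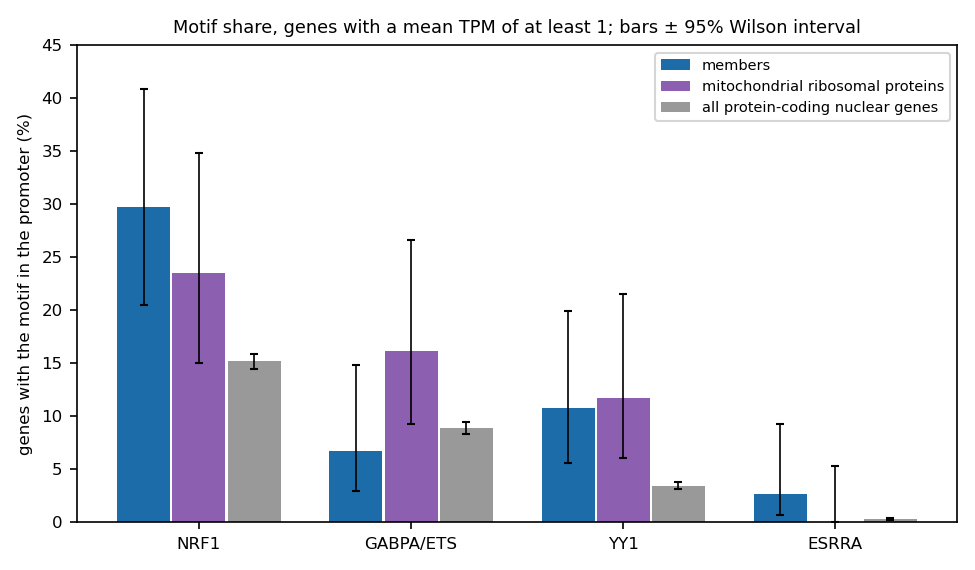
Share of genes with each motif in the promoter, in percent, for members, mitochondrial ribosomal proteins and all protein-coding nuclear genes, each with a mean of at least 1 TPM for members and all genes. Error bars are 95% Wilson intervals, and the NRF1 share is 29.7% of 74 members against 15.2% of all genes.

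The members lay on 19 chromosomes, most on chromosome 7 with 9 and chromosome 2 with 8. A start facing that of a protein-coding neighbour on the opposite strand within 1000 bp was found for 23 of the 90 members with a mean of at least 1 TPM (25.6%, interval 17.7 to 35.4). The share was 9.97% of the 13020 protein-coding nuclear genes with a mean of at least 1 TPM, and 12.3% of the 5883 at 20 to 2000 TPM. The nearest such start was that of Rps28, a ribosomal protein gene 10 bp from Ndufa7, with 563 and 493 TPM against 356 and 312. Sdhd and Timm8b, a factor for mitochondrial protein import, lie 98 bp apart, with 192 and 169 TPM against 240 and 220. Other partners were low, as Gdf9 beside Uqcrq at 2.69 and 1.91 TPM. No partner was itself a member. In all, 40 members overlap another annotated gene, 32 of them on the opposite strand. The overlapping entries include pseudogenes, small RNAs and a second record of Atp5o. The same count over all genes was not made, so whether these counts are usual is not known. The strand setting of the counting was not given in the sources used here.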

How the data were processed

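RNA from 2 pools of hindbrains was read as total RNA, and both pools form 1 group per the labels. Per the file headers, the authors deposited for each gene and transcript TPM, FPKM and an expected count (an estimated number of reads, not always whole). The deposited tables also hold a posterior SD of each count (used as a score of read sharing) and the bounds of an interval around TPM, a signal value. The build was mm10 per the labels and the annotation GENCODE M4 per the readme deposited beside the tables. Neither the aligner, the quantifier nor the strand setting is given in the sources used here.

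Symbols, biotypes and GRCm38 coordinates came from GENCODE vM21 by Ensembl identifier, 42462 of 43346 matching. The members and gene lists were chosen with earlier results of these data known. Named were, in each complex, the 3 highest and the 1 lowest member by mean TPM, the catalytic core, all alternative forms, members under 1 TPM and those beyond 1.25-fold between pools (0.32 as log2). Further genes (among them Ndufa5, Ndufa7, Ndufa11, Ndufb4, Ndufb10, Ndufaf6, Ndufs5, Uqcrh, Atp5f1, Atp5j, Atp5l, Usmg5, Uqcc2 and the factors Nrf1, Gabpa, Yy1, Esrra, Ppargc1a and Pprc1) were named after their values were seen.

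Ratios used a pseudocount of 1 and genes with a mean of at least 1 TPM. With 1 group of 2 libraries there was no test between groups. Alternatives included TMM scaling of expected counts with edgeR 4.0.16 in R 4.3.3. Tables were handled with pandas 2.3.3 under Python 3.11.15, figures drawn with Matplotlib 3.10.9, and the ratio step was tested on simulated data. Intervals cover counting error only. Promoters of 18 members and their protein sequences were not used here. Some genes that the rule selects are counted with the members but their own values are not reported here.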

Additional observations from a re-analysis of the deposited data

How the results depend on the processing

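Each pool alone gave 90 detected members and 8 members led by a non-coding transcript. The count of detected members was 87 at a limit of 5 TPM and 90 at 0.5 TPM. With FPKM the median levels were 120 for complex I, 123 for II, 202 for III, 171 for IV and 272 for V. Rescaled over protein-coding nuclear genes they were 258, 264, 432, 366 and 584 TPM. Both keep the order of the complexes and change the scale. With subunits alone complex I had 197 TPM, above complex II, and complex IV 318 TPM, above complex III. With means in place of medians complex II had 207, complex IV 288 and complex V 469 TPM.

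Without a filter on mean TPM the median gene is at 0, so the ratios are no longer centred, and the medians were -0.13 for complex I, -0.24 for II, -0.19 for III, -0.10 for IV, -0.13 for V and -0.13 for all. In that setting 4 members were beyond 0.32, Ndufs1, Sdha, Cox8b and Atp5l, against 11.5% of all 42462 genes. The median ratio of complex IV was 0.01 as reported, -0.01 as a mean and 0.02 with TMM scaling, so its sign is not settled.

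By expected counts in place of TPM the share of Cox6b1 was 97.1%, of Cox7a2 63.0%, of Ndufa4 98.4% and of Atp5g1 27.0%, since genes differ in length. With the bases before the start alone the NRF1 share was 19.7% against 12.6% of protein-coding nuclear genes with a mean of at least 1 TPM, and the YY1 share was 1.32%, equal to theirs. No paired analysis was possible because there is 1 group only. Depth limits the forms with 7 reads or fewer, Cox6a2, Cox7b2, Cox8b and Cox8c.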

Other observations

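Markers of other cell types that a hindbrain dissection can hold stood beside the alternative subunit forms as follows. Cox4i2 and Ndufa4l2, genes known from vessel-wall cells, had 3.09 and 3.04 TPM and 4.54 and 4.32 TPM, and the pericyte and smooth muscle markers summed to 72.3 and 67.5 TPM over 8 genes, of which Myh11 was lowest at 0.07 and 0.17. Erythroid markers summed to 10087.8 and 9548.5 TPM over 8 genes, with Hbb-y highest at 7661 and 7091. Endothelial markers summed to 118 and 104 TPM over 7 genes, and macrophage markers to 69.7 and 68.3 over 6. The part of any of these cells in the levels of the members was not tested.

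Of the 94 members, 4 had a deposited posterior SD of the count above 1% of their reads in a pool: Atp5l (4.94% and 5.55%), Atp5g2 (3.58% and 3.83%), Ndufb4 (3.03% and 3.19%) and Atp5g1 (1.62% and 1.84%). The share of all genes above that limit was not counted. Ndufs8 and Ndufv1, both core subunits of complex I on chromosome 19, lie 94610 bp apart.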
